A study of Mus musculus with 12 samples.

Results

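The 7 genes described here mark or drive the passage of a B cell into an antibody-secreting plasma cell: Prdm1, Xbp1, Pou2af1, Ell2, Jchain, Mzb1 and Sdc1. They were taken by gene symbol from the deposited table of splenic B cells, in which all 7 were found among 28019 genes and unnamed loci, and all 7 passed the filter on low values, as did 15853 of the whole table. The study measured RNA in 12 libraries, 3 in each of 4 groups: B cells given 1 µM of a class A CpG oligodeoxynucleotide (CpG-A), of class B (CpG-B) or of class C (CpG-C), and control B cells given none, all sampled after 24 h of culture. The cells were from the spleens of BALB/c mice aged 42 to 49 days, with no genetic change named, and were grown in RPMI-1640 with fetal bovine serum and antibiotics. The sources used here do not give how the B cells were purified, nor whether libraries of a group came from separate cultures or animals, so the p-values measure only the spread between these libraries, which may be technical.

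CpG oligodeoxynucleotides are short synthetic DNAs that engage Toll-like receptor 9, through which B cells sense microbial DNA. Class A has a phosphodiester palindrome with CpG motifs between phosphorothioate poly-G ends, class B is a linear strand with a phosphorothioate backbone throughout, and class C joins a phosphorothioate backbone to a palindromic CpG part. As background, a B cell becomes a plasma cell when Blimp-1, the product of Prdm1, silences B cell genes and XBP1 enlarges the secretory pathway. Such cells load the J chain onto polymeric antibody, lean on the chaperone partner Mzb1, and display syndecan-1 (CD138, from Sdc1) on their surface.

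Of these 7 genes, 6 rose and Sdc1 fell with every class against control (limma on log2(FPKM + 1), Benjamini-Hochberg adjusted p under 0.05). FPKM are fragments per kilobase of transcript and per M (mega) of mapped fragments. Changes were larger with CpG-B and CpG-C than with CpG-A for Prdm1, Xbp1, Pou2af1, Mzb1 and Sdc1, while for Jchain and Ell2 the tests between classes were not passed. Against control, the surface marker thus went the other way from the regulators and the secretory genes in every CpG library. In bulk RNA, fewer cells expressing a gene and less RNA of it per cell cannot be told apart.

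Sequencing depth, estimated from the steps between low FPKM values, was 21.4 to 22.8 M fragments in CpG-A, 24.8 to 25.4 in CpG-B, 24.8 to 25.5 in CpG-C and 14.3 to 17.5 in control libraries. Control libraries listed more genes and loci at 1 FPKM or more, with 11089 to 11562 in CpG-A, 10794 to 11070 in CpG-B, 10761 to 10987 in CpG-C and 15491 to 18591 in control libraries. The median FPKM of unnamed loci was 0.24 to 0.42 in CpG-A, 0.06 to 0.08 in CpG-B, 0.05 to 0.06 in CpG-C and 1.15 to 2.37 in control libraries. This difference moves with every comparison against control, and its part in them was not tested. The libraries numbered 3 of CpG-B and CpG-C stood apart. Across 3794 to 4056 well-covered genes, the variance between libraries 1 and 2 was 1.90 times counting noise with CpG-B and 2.38 times with CpG-C, whereas library 3 differed from them by 61.2 to 63.8 times in CpG-B and 62.6 to 62.9 times in CpG-C. The same measure spanned 4.21 to 9.24 in CpG-A and 4.08 to 8.90 in control libraries. Results that rest on the third libraries of CpG-B and CpG-C are given with and without them. Without them the spread, which the fit shares over all groups, rests in part on the nearly alike libraries 1 and 2. It may then be technical. All CpG-A and control libraries stay in that fit. Summed FPKM of 7 B cell markers was 3196 to 3320 in CpG-A, 3152 to 3596 in CpG-B, 2659 to 3420 in CpG-C and 4186 to 4492 in control libraries. Of 7 T cell markers in the table the sum was 4.13 to 5.68 in CpG-A, 2.33 to 2.49 in CpG-B, 1.86 to 2.51 in CpG-C and 6.43 to 7.71 in control libraries. For 7 monocyte and macrophage markers it was 12.3 to 13.1 in CpG-A, 2.16 to 3.30 in CpG-B, 2.60 to 4.08 in CpG-C and 9.58 to 10.1 in control libraries. A list of 6 plasmacytoid dendritic cell markers summed to 271 to 277 in CpG-A, 463 to 821 in CpG-B, 376 to 748 in CpG-C and 82.8 to 89.7 FPKM in control libraries, mostly from Ly6d, while its defining Siglech averaged 0.203, 0.04, 0.0167 and 0.75 FPKM in those groups. Of 5 dendritic cell markers the sum was 1.91 to 2.56 in CpG-A, 6.79 to 18.9 in CpG-B, 5.15 to 10.7 in CpG-C and 2.19 to 3.02 FPKM in control libraries, with Xcr1 and Clec9a at or near 0. Of these 5, 4 were under 1 FPKM in every CpG-B, CpG-C and control library, and 3 in every CpG-A library. The 2 that passed the filter were highest in library 3 of CpG-B and of CpG-C. Markers of NK cells, neutrophils and red cells summed to at most 5.3 FPKM. The part of other cell types in the results below was not tested.

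**Figure D1:**
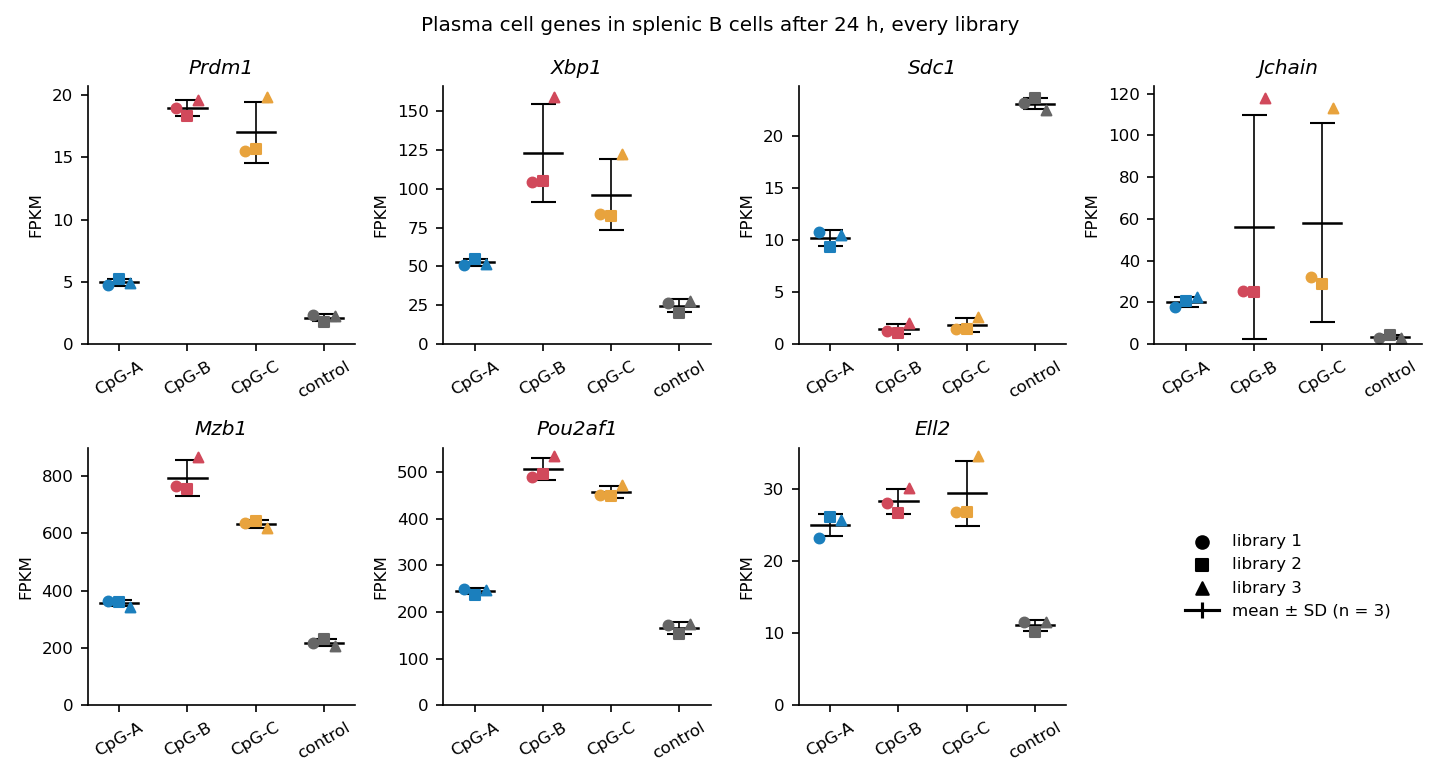
FPKM (linear axes from 0) of the 7 plasma cell genes in each library of CpG-A, CpG-B, CpG-C and control B cells; marker shape gives the library number, and the black line and bar give the mean ± SD of 3 libraries. All genes but Sdc1 are lowest in control cells, Sdc1 is highest there, and the triangles of library 3 lie well above the others for Jchain (118 FPKM with CpG-B and 113 FPKM with CpG-C).

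Prdm1 encodes Blimp-1, the repressor that commits a B cell to secretion (gene 12142, mm10 chromosome 10, 44437174 to 44458748, minus strand). It had 4.7, 5.26 and 4.88 FPKM in CpG-A libraries, 19.0, 18.3 and 19.6 FPKM in CpG-B libraries, 15.5, 15.7 and 19.8 FPKM in CpG-C libraries, and 2.3, 1.76 and 2.27 FPKM in control libraries. Control and CpG-A libraries each formed a separate range below the others, and those of CpG-B and CpG-C overlapped. On the log2(FPKM + 1) scale Prdm1 rose by 0.94 ± 0.11 with CpG-A (± SE, adjusted p = 2.07e-05), by 2.69 ± 0.11 with CpG-B (adjusted p = 2.64e-09) and by 2.53 ± 0.11 with CpG-C (adjusted p = 4.05e-09). The means of 4.95 ± 0.286, 19.0 ± 0.66 and 17.01 ± 2.45 FPKM (SD, n = 3 each) were 2.34, 8.99 and 8.06 times the control mean of 2.11 ± 0.303 FPKM. By log2 change against control, Prdm1 stood at place 151 from the top among 10860 known genes tested with CpG-B, and at place 782 with CpG-A.

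Xbp1 encodes the transcription factor that widens the endoplasmic reticulum, in its spliced form (gene 22433, chromosome 11, 5520641 to 5525993, plus strand). The table sums its transcripts, 1 of them unnamed, so the spliced and unspliced messages are not separated. Xbp1 had 50.8, 55.1 and 51.7 FPKM with CpG-A, 105, 105 and 159 FPKM with CpG-B, 84.0, 82.5 and 122.7 FPKM with CpG-C, and 26.1, 20.1 and 27.9 FPKM in control cells. The control and CpG-A ranges stood clear of all others, and library 3 was the highest of its group in CpG-B and CpG-C. Xbp1 rose by 1.07 ± 0.19 with CpG-A (adjusted p = 0.000284), 2.25 ± 0.19 with CpG-B (adjusted p = 5.80e-07) and 1.91 ± 0.19 with CpG-C (adjusted p = 1.77e-06), on the log2 scale against control. Relative to the mean of libraries 1 and 2, library 3 was 1.52 times as high in CpG-B and 1.47 times in CpG-C.

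Pou2af1 encodes the B cell coactivator OCA-B, which binds the octamer factors Oct-1 and Oct-2 (gene 18985, chromosome 9, 51213690 to 51240079, plus strand). It was among the best expressed of the 7 genes, with 248.8, 237 and 248 FPKM in CpG-A cells, 489, 496 and 534 FPKM in CpG-B cells, 450.1, 448 and 472 FPKM in CpG-C cells, and 173, 152 and 175 FPKM in control cells. None of the 4 groups overlapped another. The log2 rise against control was 0.55 ± 0.07 with CpG-A (adjusted p = 4.40e-05), 1.60 ± 0.07 with CpG-B (adjusted p = 6.72e-09) and 1.45 ± 0.07 with CpG-C (adjusted p = 1.38e-08). The end of Pou2af1 overlaps Gm684 on the other strand, which was listed at 0.33 to 10.1 FPKM over all libraries; the strandedness of the libraries is not given, so reads in the overlap cannot be told apart.

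Ell2 encodes an elongation factor that in plasma cells favours the secretory form of the heavy chain message (gene 192657, chromosome 13, 75707484 to 75772361, plus strand). It had 23.2, 26.1 and 25.8 FPKM with CpG-A, 28.02, 26.7 and 30.1 FPKM with CpG-B, 26.8, 26.8 and 34.5 FPKM with CpG-C, and 11.5, 10.2 and 11.6 FPKM in control cells. Every CpG library was above every control library, and the classes lay close together. The log2 rise was 1.11 ± 0.10 with CpG-A (adjusted p = 6.97e-06), 1.28 ± 0.10 with CpG-B (adjusted p = 4.92e-07) and 1.32 ± 0.10 with CpG-C (adjusted p = 3.84e-07).

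The 250 bases before the start of 6 of the 7 genes were matched by symbol in RefSeq promoters of GRCm38.p6. They were searched on both strands for the octamer of the Pou2 factors, ATGCAAAT, and for an XBP1 element of the unfolded protein response, TGACGTGG, whose exact letters were chosen after the promoters were seen. The octamer was in 0 of the 6, and in 1.61% of 27025 promoters of that length. The XBP1 element was in 1 of the 6, Pou2af1, from base -61 to base -54 before the start, and in 0.503% of all. Since its letters were chosen with these promoters seen, the 1 of 6 cannot be read against that share. Promoters of 3 genes are shown, Pou2af1 for this match, Prdm1 as the regulator, and Sdc1 as the gene that moved the other way. Capitals mark the XBP1 element, and each sequence runs 5′ to 3′ along its gene.
Pou2af1, chr9:51213440-51213689, plus strand: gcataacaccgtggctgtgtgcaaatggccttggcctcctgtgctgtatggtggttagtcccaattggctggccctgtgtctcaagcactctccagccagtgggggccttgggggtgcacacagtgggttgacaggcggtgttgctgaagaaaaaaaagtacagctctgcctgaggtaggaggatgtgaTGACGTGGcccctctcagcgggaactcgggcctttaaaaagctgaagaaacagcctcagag
Prdm1, chr10:44458749-44458998, minus strand: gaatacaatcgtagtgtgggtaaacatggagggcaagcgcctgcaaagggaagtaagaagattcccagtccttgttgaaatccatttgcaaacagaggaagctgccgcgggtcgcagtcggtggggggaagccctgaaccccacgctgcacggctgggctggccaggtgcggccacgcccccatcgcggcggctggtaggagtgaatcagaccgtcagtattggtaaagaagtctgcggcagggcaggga
Sdc1, chr12:8771146-8771395, plus strand: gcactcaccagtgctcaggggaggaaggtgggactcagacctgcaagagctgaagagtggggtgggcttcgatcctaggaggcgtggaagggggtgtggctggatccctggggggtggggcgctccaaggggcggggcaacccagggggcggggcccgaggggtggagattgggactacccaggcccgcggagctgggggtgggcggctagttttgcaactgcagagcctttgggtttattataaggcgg
GC content of these windows was 56.0% for Pou2af1, 59.2% for Prdm1 and 66.0% for Sdc1, against 61.2% for Ell2, 50.4% for Xbp1 and 42.0% for Jchain. The matches are descriptions of letters, and binding was not measured.

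Jchain encodes the joining chain of polymeric IgM and IgA (gene 16069, chromosome 5, 88519627 to 88527897, minus strand). It had 17.8, 20.4 and 22.6 FPKM in CpG-A libraries, 25.5, 24.8 and 118 FPKM in CpG-B libraries, 32.2, 29.0 and 113 FPKM in CpG-C libraries, and 2.72, 4.49 and 2.85 FPKM in control libraries. Every CpG library was above every control library, and library 3 of CpG-B and of CpG-C was far above its partners. Jchain rose by 2.31 ± 0.57 with CpG-A (adjusted p = 0.00353), 3.34 ± 0.57 with CpG-B (adjusted p = 0.000174) and 3.50 ± 0.57 with CpG-C (adjusted p = 0.000117), on the log2 scale. This SE comes from a spread shared over all groups, so it does not describe CpG-A and control alone. The SD was 2.44 FPKM with CpG-A and 0.99 FPKM in control cells, against 53.5 FPKM with CpG-B and 47.8 FPKM with CpG-C. The third library was 4.68 times the mean of the other 2 in CpG-B and 3.70 times in CpG-C. Without the third libraries the rise was 2.61 ± 0.16 with CpG-B (adjusted p = 4.57e-07) and 2.88 ± 0.16 with CpG-C (adjusted p = 2.40e-07), so these calls did not rest on them, while the sizes did. In that fit the rise with CpG-A kept its size, at 2.31 ± 0.14 (adjusted p = 8.50e-07). The smaller SEs then rest in part on the nearly alike libraries 1 and 2, whose spread may be technical. With those averaged the rises were 3.70 ± 0.61 with CpG-B (adjusted p = 0.000275) and 3.81 ± 0.61 with CpG-C (adjusted p = 0.000226).

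Mzb1 encodes a small endoplasmic reticulum protein that works with Grp94 in folding antibody (gene 69816, chromosome 18, 35647265 to 35649367, minus strand). It had the highest FPKM of the 7 genes in every library. Values were 363, 361 and 343 FPKM with CpG-A, 763, 753 and 866 FPKM with CpG-B, 637, 641 and 616 FPKM with CpG-C, and 218, 230.0 and 206 FPKM in control cells. The 4 groups did not overlap, and their order was CpG-B, CpG-C, CpG-A, control. Mzb1 rose by 0.70 ± 0.07 with CpG-A (adjusted p = 1.38e-05), 1.86 ± 0.07 with CpG-B (adjusted p = 2.70e-09) and 1.53 ± 0.07 with CpG-C (adjusted p = 1.13e-08). It lies within Spata24 on the same strand, listed at 6.02 to 26.3 FPKM, and shared fragments could have been assigned to either.

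Sdc1 encodes syndecan-1, the heparan sulfate proteoglycan CD138 by which plasma cells are usually sorted (gene 20969, chromosome 12, 8771396 to 8793688, plus strand). It had 10.8, 9.35 and 10.5 FPKM in CpG-A cells, 1.2, 1.07 and 2.03 FPKM in CpG-B cells, 1.45, 1.4 and 2.55 FPKM in CpG-C cells, and 23.1, 23.6 and 22.5 FPKM in control cells. Control libraries were the highest, CpG-A libraries lay between, and those of CpG-B and CpG-C overlapped at the bottom. Sdc1 fell by 1.10 ± 0.17 with CpG-A (adjusted p = 9.73e-05), 3.33 ± 0.17 with CpG-B (adjusted p = 1.33e-08) and 3.13 ± 0.17 with CpG-C (adjusted p = 2.18e-08) on the log2 scale. The control mean was 2.26 times that of CpG-A, 16.1 times that of CpG-B and 12.8 times that of CpG-C. By log2 change against control, Sdc1 was at place 24 from the bottom among 10860 known genes tested with CpG-B, and at place 31 with CpG-C. The lowest CpG-B value stood for an estimated 80 fragments, so the fall was measured well above single reads. In the third library Sdc1 was 1.79 times the mean of the others in both CpG-B and CpG-C, the same direction as Jchain.

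The counts were read against all genes tested. Against control, 6 of the 7 genes were higher and 1 lower in CpG-A cells, where 23.6% of all tested genes were higher and 42.1% lower. In CpG-B cells the same 6 and 1 stood beside 25.7% higher and 51.8% lower of all, and in CpG-C cells beside 26.1% and 51.3%. Among the 10860 known genes alone, 32.8% were higher and 22.1% lower with CpG-A, 34.8% and 35.3% with CpG-B, and 35.7% and 34.5% with CpG-C. The libraries of all 7 genes did not overlap with control in any class, and neither did those of 76.4% of all tested genes in CpG-A, 80.7% in CpG-B and 80.2% in CpG-C cells. The median log2 change of the 7 genes was 0.94 in CpG-A, 1.86 in CpG-B and 1.53 in CpG-C cells, against -0.156, -0.315 and -0.308 over all genes tested and 0.049, 0.002 and 0.015 over known genes. These 3 comparisons share the control libraries. Another scaling moved the median of all genes, in CpG-B against control, to -0.573 (TPM), 0.006 (median of ratios) or -0.216 (upper quartile), and under each of them all 7 genes kept their direction and call in all 3 comparisons. Of the genes called in CpG-B against control 33.1% were higher, and 21.8% with TPM, 49.4% with median-of-ratios and 38.0% with upper-quartile scaling; for CpG-C against control these were 33.8%, 23.5%, 49.4% and 38.2%.

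**Figure D2:**
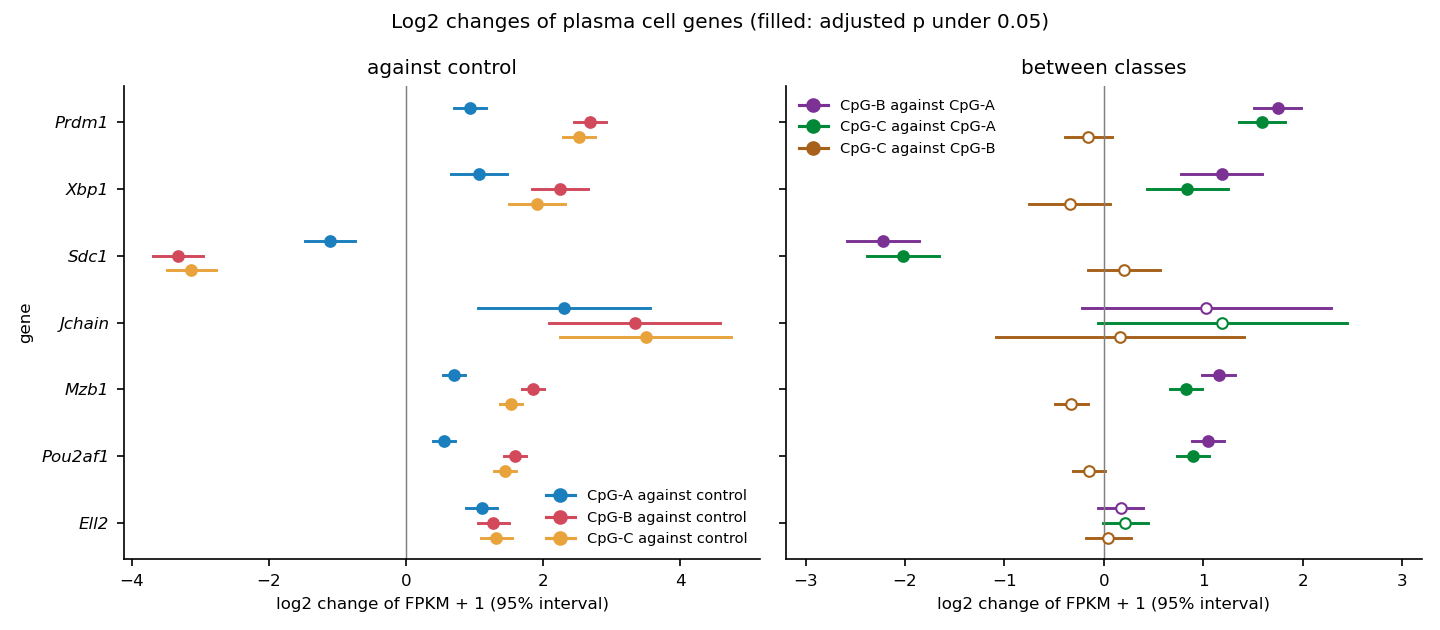
Log2 change of FPKM + 1 with its 95% interval for each gene, left against control and right between classes; filled points passed adjusted p under 0.05. Sdc1 is the only gene left of 0 against control, and all 7 intervals of CpG-C against CpG-B are drawn with open points.

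The classes were compared at the same dose and time, as 3 pairs. Between CpG-B and CpG-A, 4 of the 7 genes were higher and 1 lower with CpG-B, where 13.1% of all tested genes were higher and 31.5% lower. Prdm1 was higher by 1.75 ± 0.11 (adjusted p = 3.84e-07), Xbp1 by 1.18 ± 0.19 (adjusted p = 0.000490), Mzb1 by 1.15 ± 0.07 (adjusted p = 5.43e-07) and Pou2af1 by 1.05 ± 0.07 (adjusted p = 9.83e-07) on the log2 scale, and Sdc1 was lower, at -2.22 ± 0.17 (adjusted p = 1.64e-06). Between CpG-C and CpG-A the same 5 genes were called in the same directions, where 11.4% of all genes were higher and 29.3% lower. Their log2 differences were 1.59 for Prdm1, 0.84 for Xbp1, 0.83 for Mzb1, 0.90 for Pou2af1 and -2.02 for Sdc1, with adjusted p from 1.17e-06 (Prdm1) to 0.00510 (Xbp1). The share of higher among all called genes was 29.4% for CpG-B against CpG-A, and 17.4% with TPM, 61.6% with median-of-ratios and 43.0% with upper-quartile scaling; for CpG-C against CpG-A it was 28.1%, 17.7%, 59.9% and 40.6%. Among known genes 17.7% were higher and 29.2% lower for CpG-B against CpG-A, and 15.4% and 24.3% for CpG-C against CpG-A. Both comparisons share the CpG-A libraries.

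Jchain and Ell2 did not pass in either comparison with CpG-A, although no library of CpG-B or CpG-C fell within the CpG-A range, as in 69% of all tested genes for CpG-B and 65.7% for CpG-C. For Jchain the log2 difference was 1.03 (95% interval -0.22 to 2.28, adjusted p = 0.147) for CpG-B against CpG-A and 1.19 (-0.06 to 2.44, adjusted p = 0.106) for CpG-C against CpG-A. Without the third libraries these were 0.30 (adjusted p = 0.134) and 0.57 (adjusted p = 0.0156), so CpG-C against CpG-A then passed. With the replicate number as a block it also passed, at adjusted p = 0.04997. For Ell2 the difference was 0.17 (-0.05 to 0.40) and 0.21 (-0.01 to 0.44), with adjusted p = 0.180 and 0.106; with median-of-ratios scaling it became 0.44 (adjusted p = 0.0179) for CpG-B and 0.48 (adjusted p = 0.0130) for CpG-C, both past the threshold.

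Between CpG-C and CpG-B, limma called 0 of the 7 genes, where 0.114% of all genes were higher and 0.0694% lower. At an unadjusted p under 0.05 there was 1, Mzb1, which with CpG-C was lower without overlap (log2 -0.33 ± 0.07, 95% interval -0.49 to -0.16, limma adjusted p = 0.195); over all genes 914 had such a p. Pou2af1 also had no overlap between the classes, at -0.15 (-0.31 to 0.01), and 12.4% of all tested genes had none. The other intervals were -0.39 to 0.08 for Prdm1, -0.75 to 0.06 for Xbp1, -0.16 to 0.56 for Sdc1, -0.18 to 0.27 for Ell2 and -1.09 to 1.41 for Jchain. The Jchain interval allows a more than doubled level in either class.

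**Figure D3:**
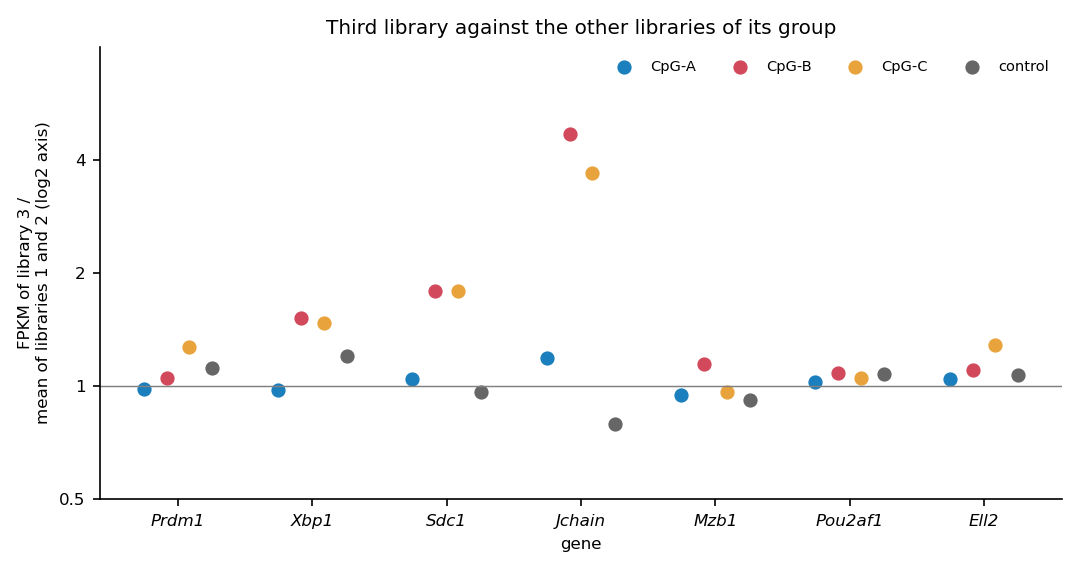
FPKM of library 3 divided by the mean of libraries 1 and 2 of the same group, on a log2 axis, for the 7 genes and 4 groups. Jchain reaches 4.68 in CpG-B and 3.70 in CpG-C, Sdc1 and Xbp1 follow at 1.47 to 1.79, and Mzb1 stays between 0.920 and 1.14 in all groups.

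The third libraries moved as a set with these genes. In CpG-B all 7 genes were higher in library 3 than in libraries 1 and 2, where 40.8% of all tested genes were, and in CpG-C 6 of 7 were, where 40.1% of all were. Mzb1 was the exception in CpG-C. In CpG-A 1 of the 7 was above both others and in control cells 3 of 7, where 26.9% and 25.4% of all tested genes were. Of the 7 B cell markers, 6 were below both other libraries in CpG-B and all 7 in CpG-C, where 41.0% and 40.7% of all tested genes were. The libraries are too few to test within a group, and whether they differed by culture, animal or handling was not tested.

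Across the 12 libraries the 7 genes ordered the samples much alike. Pearson's r on log2(FPKM + 1) was 0.997 between Prdm1 and Pou2af1, 0.983 between Prdm1 and Mzb1 and 0.969 between Prdm1 and Xbp1. Sdc1 was negatively correlated with the other 6, from -0.78 with Jchain to -0.98 with Prdm1. Jchain and Ell2 had r = 0.924 with each other and 0.856 to 0.868 with Prdm1, Mzb1 and Pou2af1. These points share their 4 groups and their libraries, so the values are descriptions.

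Most alike to each gene, among 6954 known genes with at least 10 FPKM in some group, were the following. For Prdm1 these were Krt222 (r = 0.995) and Rsrc1 (r = 0.994), and for Pou2af1 Krt222 (r = 0.998) and Atf3 (r = 0.997). Xbp1 was closest to Lgals9 (r = 0.997) and H2-T10 (r = 0.996), Sdc1 to Sh3bp2 (r = 0.996) and Calhm2 (r = 0.995), and Mzb1 to Rps19 (r = 0.997) and Rps20 (r = 0.996). Ell2 was closest to Ncapg2 (r = 0.995) and Rrm2 (r = 0.994), whose levels were 66.6 FPKM with CpG-A, 100.4 FPKM with CpG-B, 109.9 FPKM with CpG-C and 5.38 FPKM in control cells for Rrm2. Jchain was closest to Fbxo5 (r = 0.995) and Nudt21 (r = 0.991). Such values were common over these 12 libraries, since from 272 (Jchain) to 497 (Ell2) genes had r above 0.95 with a given member.

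Other regulators and markers of plasma cells, 21 tested of 23 in the table, rose in 9 and fell in 2 with CpG-A, rose in 11 and fell in 4 with CpG-B, and rose in 10 and fell in 5 with CpG-C, with median log2 changes of 0.26, 0.67 and 0.57. Over all genes tested these medians were -0.156, -0.315 and -0.308, and over known genes 0.049, 0.002 and 0.015. Of all genes tested 23.6%, 25.7% and 26.1% rose in those classes, and 42.1%, 51.8% and 51.3% fell. Of known genes 32.8%, 34.8% and 35.7% rose, and 22.1%, 35.3% and 34.5% fell. Without the third libraries the counts of the list were 12 and 3, 14 and 5, and 12 and 6. Fam46c (also Tent5c), an RNA poly(A) polymerase abundant in plasma cells, had 23.5, 24.0 and 20.0 FPKM with CpG-A, 48.8, 49.3 and 46.5 FPKM with CpG-B, 43.5, 43.3 and 57.0 FPKM with CpG-C, and 2.97, 1.52 and 2.63 FPKM in control cells. All its CpG libraries were above control, and it rose by 3.89 ± 0.16 on the log2 scale with CpG-B (adjusted p = 2.81e-09). Derl3, of the degradation pathway of the endoplasmic reticulum, rose by 3.33 ± 0.14 with CpG-B, to 51.5 ± 8.41 FPKM in CpG-B cells, against 4.2 ± 0.705 FPKM in control cells.

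Cxcr4, the receptor that holds plasma cells in bone marrow, went the other way, with 119.8 ± 11.7 FPKM in CpG-A cells, 52.9 ± 4.41 in CpG-B cells, 50.0 ± 2.92 in CpG-C cells and 483 ± 60.0 in control cells; it fell by 3.16 ± 0.11 with CpG-B on the log2 scale (adjusted p = 6.24e-10). Ikzf3, encoding Aiolos, fell by 0.94 ± 0.18 with CpG-B (adjusted p = 0.000370). Tnfrsf17, the BCMA receptor of long-lived plasma cells, was at most 0.4 FPKM in any library, and Cd28, named after its values were seen, at most 0.61 FPKM, so neither was tested.

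Irf4, which acts upstream of Prdm1, did not pass against control in any class. It had 70.0, 73.7 and 71.1 FPKM with CpG-A, 46.8, 45.9 and 70.9 FPKM with CpG-B, 46.6, 45.2 and 66.2 FPKM with CpG-C, and 63.1, 62.3 and 64.0 FPKM in control cells. Libraries 1 and 2 of CpG-B and CpG-C were below control and library 3 above it. Without the third libraries Irf4 fell by 0.44 with CpG-B (adjusted p = 9.16e-06) and by 0.45 with CpG-C (adjusted p = 7.35e-06). These p-values leave out the libraries that went the other way. They rest in part on the nearly alike libraries 1 and 2, whose spread may be technical. With TPM scaling Irf4 also passed as lower, at log2 -0.53 in both classes. With median-of-ratios scaling the sign was positive (0.14 and 0.09), without passing. Against CpG-A, Irf4 was lower in CpG-C cells, by a log2 difference of -0.46 (adjusted p = 0.0436). Eaf2, an elongation factor partner of the Ell proteins, had 3.98 ± 0.0917 FPKM in CpG-A cells, 10.4 ± 4.56 in CpG-B cells, 8.11 ± 2.85 in CpG-C cells and 8.44 ± 1.95 in control cells, and was called lower in CpG-A cells (log2 -0.90 ± 0.26, adjusted p = 0.00931).

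**Figure D4:**
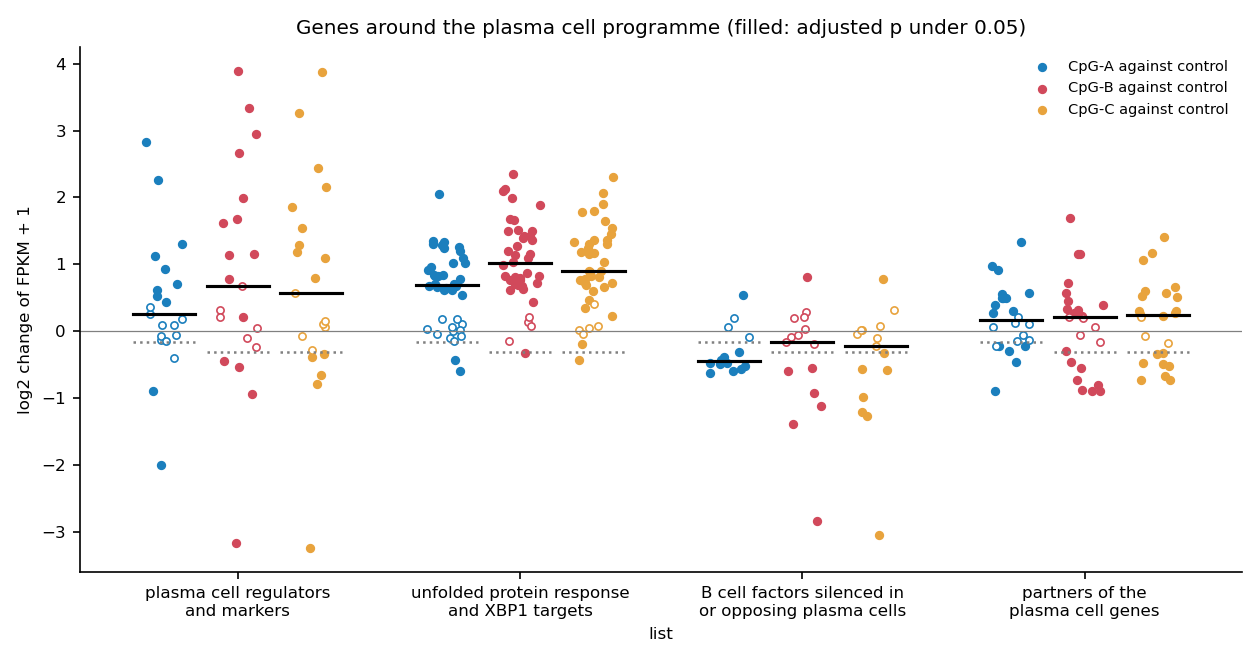
Log2 change of FPKM + 1 against control for the tested genes of 4 lists, by CpG class; filled points passed adjusted p under 0.05, the black line is the median of the list and the dotted grey line that of all 15853 genes tested. Medians of the unfolded protein response list are 0.69 in CpG-A, 1.01 in CpG-B and 0.89 in CpG-C cells, against -0.156, -0.315 and -0.308 for all genes.

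Genes of the unfolded protein response and targets of XBP1 mostly rose. Of 40 tested, 27 rose and 2 fell with CpG-A, 35 rose and 1 fell with CpG-B, and 33 rose and 2 fell with CpG-C; without the third libraries these were 28 and 3, 36 and 2, and 34 and 2. Of known genes 32.8%, 34.8% and 35.7% rose against control in those classes, and 22.1%, 35.3% and 34.5% fell. Between classes 22 of the 40 were higher and 1 lower with CpG-B than with CpG-A. With CpG-C 19 were higher and 1 lower than with CpG-A. Of all genes tested 13.1% were higher and 31.5% lower in the first of these comparisons, and 11.4% and 29.3% in the second. Sdf2l1, a cofactor of the chaperone BiP, had 62.3, 65.0 and 63.6 FPKM with CpG-A, 71.6, 72.5 and 94.0 FPKM with CpG-B, 62.1, 68.5 and 105 FPKM with CpG-C, and 15.0, 15.3 and 13.6 FPKM in control cells. It rose by 2.35 ± 0.17 with CpG-B (adjusted p = 1.77e-07), all CpG libraries being above control.

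Atf6, a sensor of unfolded protein, rose by 2.12 ± 0.08 with CpG-B, at 61.8 ± 5.96 FPKM in CpG-B cells against 13.4 ± 0.98 FPKM in control cells. BiP itself, Hspa5, averaged 329 ± 17.5 FPKM in CpG-A cells, 362 ± 22.8 in CpG-B cells, 356 ± 65.7 in CpG-C cells and 128 ± 5.18 in control cells (SD, n = 3 each here and for the other means), and Hsp90b1, the Grp94 that pairs with Mzb1, averaged 422 ± 22.6, 372 ± 10.3, 377 ± 55.7 and 167 ± 15.1 FPKM in the same groups. Both rose with every class, Hspa5 by 1.36, 1.49 and 1.45 and Hsp90b1 by 1.33, 1.15 and 1.16 in log2 in CpG-A, CpG-B and CpG-C cells. Eif2ak3, the sensor PERK, fell with CpG-B by 0.33 ± 0.12 (adjusted p = 0.0260), a sign that median-of-ratios scaling turned round (0.04, not passed), and it did not pass with upper-quartile scaling (-0.21). Derl2 had a log2 change of -0.15 ± 0.07 (adjusted p = 0.0749), not passed; with median-of-ratios scaling it was called higher (0.21), with TPM scaling lower (-0.43), and without the third libraries lower (-0.17).

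A single gene of this list was called between CpG-C and CpG-B. It was Ddit3, which encodes the stress factor CHOP, and it is named here after its values were seen. It had 24.6, 28.6 and 25.1 FPKM in CpG-C libraries, against 45.8, 44.4 and 60.4 FPKM in CpG-B libraries, so the classes did not overlap. The log2 difference was -0.91 ± 0.11 (adjusted p = 0.00868), and -0.74 without the third libraries (adjusted p = 0.00317). Against control Ddit3 rose by 0.86 with CpG-B and fell by 0.59 with CpG-A.

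B cell factors that oppose plasma cell fate or are silenced in it gave a mixed picture. Of 15 tested, 1 rose and 11 fell with CpG-A, 1 rose and 6 fell with CpG-B, and 1 rose and 7 fell with CpG-C, but with median-of-ratios scaling 7 rose and 4 fell with CpG-B and 6 rose and 4 fell with CpG-C. Without the third libraries 3 rose and 6 fell with CpG-B, and 3 rose and 7 fell with CpG-C. The median change was -0.44 in CpG-A, -0.17 in CpG-B and -0.22 in CpG-C cells, against -0.156, -0.315 and -0.308 over all genes tested. Known genes alone had medians of 0.049, 0.002 and 0.015. Of all genes tested 42.1%, 51.8% and 51.3% fell in those classes, and 23.6%, 25.7% and 26.1% rose. For known genes the shares were 22.1%, 35.3% and 34.5% lower and 32.8%, 34.8% and 35.7% higher. Fcer2a, the IgE receptor CD23, fell by 2.84 ± 0.19 with CpG-B and Ciita, the MHC class II activator, by 1.38 ± 0.11, both under every scaling. Irf8 was the gene that rose (0.81 ± 0.09 with CpG-B), and Spib was at 0.29 ± 0.16 (adjusted p = 0.126).

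Pax5, the keeper of B cell identity that Blimp-1 represses, averaged 148 ± 7.33 FPKM in CpG-A cells, 153 ± 26.6 in CpG-B cells, 152 ± 19.3 in CpG-C cells and 157 ± 7.27 in control cells. It did not pass in any class with the deposited FPKM, and its sign depended on the scaling: with CpG-B it was called lower under TPM (-0.35) and higher under median of ratios (0.33). Bach2, a repressor of Prdm1, averaged 29.6 ± 1.80, 41.9 ± 9.49, 42.7 ± 5.53 and 40.4 ± 5.71 FPKM in CpG-A, CpG-B, CpG-C and control cells, and was called lower in CpG-A cells (-0.43, adjusted p = 0.0350); in CpG-B (0.04) and CpG-C cells (0.08) it did not pass, but was called higher under median-of-ratios scaling (0.41 and 0.44), and negative under TPM. Bcl6, the germinal centre repressor, fell by 0.55 ± 0.17 with CpG-B (adjusted p = 0.00962), by 0.57 with CpG-C and by 0.56 with CpG-A; with median-of-ratios scaling it did not pass in CpG-B or CpG-C. In the third libraries of CpG-B and CpG-C, 11 and 14 of the 15 genes were below both other libraries. Of all tested genes 41.0% and 40.7% were.

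Of 24 partners of the 7 genes, 11 rose and 5 fell with CpG-A. With CpG-B 11 rose and 8 fell, and with CpG-C 13 rose and 8 fell. Among known genes 32.8% rose and 22.1% fell with CpG-A, 34.8% and 35.3% with CpG-B, and 35.7% and 34.5% with CpG-C. Among all genes tested the shares were 23.6% and 42.1%, 25.7% and 51.8%, and 26.1% and 51.3%. The median log2 changes of the list were 0.16, 0.20 and 0.24, against -0.156, -0.315 and -0.308 over all genes tested. With TPM scaling 4 rose and 9 fell with CpG-B, and with median-of-ratios scaling 14 rose and 4 fell. Pou2f2, the octamer factor Oct-2 that Pou2af1 binds, had 89.9 ± 3.62 FPKM with CpG-A, 163 ± 12.3 with CpG-B, 154 ± 10.2 with CpG-C and 72.5 ± 3.37 in control cells; it rose by 1.15 ± 0.08 with CpG-B (adjusted p = 1.27e-07). Ext1, whose product polymerises the heparan sulfate chains carried by syndecan-1, rose by 1.69 ± 0.14 with CpG-B, while the RNA of Sdc1 fell.

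Among elongation and polyadenylation partners of Ell2 the paralogue Ell3 fell by 0.89 ± 0.19 with CpG-B (adjusted p = 0.00107), and rose by 0.92 with CpG-A (adjusted p = 0.00115). Cstf2, the cleavage factor CstF-64 linked to the secretory poly(A) site, rose by 0.32 ± 0.07 with CpG-B (adjusted p = 0.00126; 0.04 and not passed under TPM scaling), whereas its paralogue Cstf2t fell by 0.90 ± 0.07 (adjusted p = 4.29e-07). Immunoglobulin constant genes such as Ighm and Igha were not found by symbol in the deposited table, so they were not analysed. The receptor chain Cd79a averaged 1109 ± 48.5 FPKM in CpG-A cells, 1269 ± 126 in CpG-B cells, 1189 ± 212 in CpG-C cells and 1620.0 ± 49.4 in control cells. It was lower than control in every class, but it was not called under median-of-ratios scaling in CpG-B (0.02) or CpG-C cells (-0.09), nor under upper-quartile scaling in CpG-B cells (-0.24). Cd79b, the other chain, was also called lower in every class, but not under median-of-ratios scaling in CpG-B cells (-0.030).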

How the data were processed

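The 12 RNA libraries were grouped by the treatment in their labels. FPKM per library are the authors' deposited values, with 2 decimals. It also holds the authors' log2 ratios, and p-value and q-value columns; 77.5% of the deposited q-values lay below their p-values, so these columns were not used. The authors' deposited table also has other columns with positions and transcript lengths, in mm10. RSEM 1.2.8, Bowtie2 2.2.5, StringTie, HISAT and GATK are named, without role or order, per the submitters' processing notes.

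The 7 genes and all lists were chosen with earlier results of these data known. Of 28021 entries 2 named no gene. FPKM are not counts, so limma 3.58.1 (R 4.3.3) with trend was fitted on log2(FPKM + 1) over all 12 libraries, for 15853 genes above 1 FPKM in at least 3 libraries. P-values were adjusted by Benjamini-Hochberg over these genes. The log2 scale understates changes of low genes. The fit was tested on simulated data. Tables were made in Python 3.11.15 with pandas 2.3.3.

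Depth was estimated from steps of low FPKM of genes with 1 transcript, taking 100 bases off the length; 89.7% to 95.0% of low values came within 0.2 of whole fragments (40% if spread evenly), too few to recover counts. Replicate numbers come from the titles. Deviations from group means correlated between same-numbered CpG-B and CpG-C libraries (r = 0.594, 0.538 and 0.745). Between CpG-A and control libraries r was 0.468, -0.117 and 0.518 for numbers 1, 2 and 3. For same-numbered libraries of the other group pairs r lay between -0.129 and 0.05. Libraries 1 and 2 of CpG-B and CpG-C correlated about as well with crossed numbers (r = 0.509 and 0.551). CpG-A library 2 and control library 1 had r = 0.461. The numbers thus show that library 3 deviated alike in CpG-B and CpG-C, and likewise in CpG-A and control. They give no pairing of libraries 1 and 2.

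Genes named beyond the 7 were, for each, the 2 with the highest r among genes with at least 10 FPKM in 1 group, from each list the 2 highest and 2 lowest in CpG-B against control, and Irf4, Pax5, Bach2, Bcl6, Tnfrsf17, Hspa5, Hsp90b1, Pou2f2, Eaf2, Cstf2 and Cd79a; a further gene of the rule is not reported here. The design foresaw a count test had counts been given. Alternatives were the pseudocount, filter, genes and libraries fitted, scaling, trend, replicate block and leaving out each library.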

Additional observations from a re-analysis of the deposited data

How the results depend on the processing

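Over 805 alternative values of the log2 changes, 796 kept their direction and their side of the threshold, 4 passed it newly and 5 changed sign, all 5 between CpG-C and CpG-B, where no gene of the 7 was called. All 7 genes kept their call against control under every alternative, and the counts of called genes were 5 or 6 between CpG-B and CpG-A and between CpG-C and CpG-A. For Jchain the log2 difference of CpG-C against CpG-B ranged from -0.46 to 0.89 when 1 library was left out, with -0.19 and -0.21 without the CpG-B libraries 1 and 2 and -0.46 without the third CpG-C library. For Ell2 it ranged from -0.073 to 0.10, and was -0.028 without the third libraries. With a replicate block the Jchain difference of CpG-C against CpG-A was 1.19 (adjusted p = 0.04997); the block changed no other call, and in CpG-B and CpG-C libraries alone it left 0 genes called of 15853. Over all genes, CpG-C against CpG-B gave 18 higher and 11 lower, 0 and 0 in a fit of only those groups, and 60 and 27 without the third libraries. Leaving out 1 library gave 1 to 21 higher and 0 to 9 lower, the lowest without the CpG-C library 1. For CpG-B against CpG-A there were 2082 higher and 4992 lower, against 3794 and 2368 with median-of-ratios scaling and 1454 and 6915 with TPM scaling. No filter on low values raised the genes lower than control to 15461 with CpG-B, and a filter at 5 FPKM left 3226. Leaving out the third libraries, averaging libraries 1 and 2, and the block in CpG-B and CpG-C alone were chosen after seeing the data. Depth and 3 libraries per group limit low genes most. The causes were not tested.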
